A study of Mus musculus with 22 samples.

Results

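The transcriptome of FE1 cells exposed to a high dose of Mitsui7 was compared directly with that of cells exposed to a low dose, which asks which genes still moved over an 8-fold rise in dose and which were already at their new level. Members were taken by their labels, as the 6 arrays of the D3 (100 µg) group and the 6 arrays of the D1 (12.5 µg) group, which make 12 of the 22 arrays of the series. FE1 is an immortalised epithelial cell line derived from the lung of the Muta(TM)Mouse, a transgenic mutation-reporter mouse, so every group is the same cell line and carries the same transgene. Mitsui7 is a multiwalled carbon nanotube, a long stiff fibre of nested graphene cylinders. All cells were exposed for 24 h in medium with serum and epidermal growth factor, at 0 (control, 5 arrays), 12.5 (low), 25 (medium, 5 arrays) or 100 µg/ml (high). The low dose therefore stood between untreated cells and a dose at which the nanotubes had an 8-fold higher concentration.

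Fibroblast-like and epithelial cells in culture secrete much of their own matrix, made of fibrillar collagens, the enzymes that cross-link them and small proteins that sit between the fibres. Transforming growth factor beta (TGF-beta) ligands, stored in that matrix in latent form, drive its synthesis. Cholesterol is made from acetyl-CoA by a chain of enzymes that are transcribed together under sterol control. A further set of genes, the ATF4 and CHOP targets, is switched on when the endoplasmic reticulum or amino acid supply is disturbed. Long stiff fibres that reach the lung are studied for inflammation, oxidative stress and fibrosis, and these gene groups are followed for that reason.

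Each array held the sample (Cy5) against a common mouse reference RNA (Cy3), and values below are log2 ratios of sample to reference unless they are named as differences. A ratio of one gene cannot be set against the ratio of another gene. Per the file headers, the low and high arrays of the same number lay on the same slide, with replicates 1 and 2 of each on slide 1 and 1 pair on each of the other 4 slides, so the comparison was balanced over slides. Between 25884 and 37010 probes per low dose array and between 29562 and 36831 per high dose array lay above the negative controls, and the means did not differ beyond the spread within slides (difference 1668 probes, exact two-sided permutation test within slides, p = 0.25, smallest possible p 0.0208). The threshold set by the negative controls averaged 81.1 ± 7.04 intensity units at the low dose and 77.9 ± 2.85 at the high dose (SD, n = 6 each, exact permutation p = 0.0417, adjusted p = 0.125 over 3 array measures). Median Cy5 intensity was 89.2 ± 8.29 at the low dose and 88.8 ± 4.17 at the high dose (SD, n = 6 each, exact permutation p = 0.958). The labels describe 3 exposures per dose on each experiment day and the study's methods 3 experiments, so some of the 6 arrays per dose may share an experiment, and the sources do not say which, so p-values measure the spread between these samples, which may be partly technical.

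One low dose array stood apart. On the first principal component of the 16349 probes detected and measured on all arrays, after removal of slide differences, low dose replicate 1 scored 21.9, while the other 5 low dose arrays scored -13.6 to 2.01 and the 6 high dose arrays 8.94 to 24.4. The median correlation of low dose replicate 1 with the other low dose arrays was 0.758, the lowest of the series. On the same slide, medium dose replicate 2 scored -5.80, while the other medium dose arrays scored 8.70 to 26.9. Among the 72 probes called lower at the high dose, low dose replicate 1 lay below all other low dose arrays for 46 (63.9%), against 22.6% of all detected probes. Each of these 2 arrays thus scored within the range of the other's group, and whether their labels are right was not tested. Low dose replicate 1 was kept under its label, and the main results are given with and without it.

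The label of a lung epithelial line was checked against marker genes. Of 11 epithelial markers 7 were detected in the low or high dose arrays, among them the keratins Krt7, Krt8, Krt18 and Krt19, while Epcam, Cdh1, Cldn3 and Ocln were not. Of 8 markers of alveolar type 2 cells, the surfactant-making cells of the lung, 5 were detected (Sftpc, Sftpd, Lamp3, Abca3 and Napsa) and Sftpa1, Sftpb and Slc34a2 were not, with no call between the doses. Of 10 fibroblast markers 9 were detected, including Col1a1, Col1a2, Col3a1 and Dcn, with a summed Cy5 intensity of 93978 to 385472 on the low dose arrays and 121037 to 327599 on the high dose arrays. The 7 epithelial markers summed to 1934 to 7278 on the low and 2262 to 6379 on the high dose arrays, and the sums of different probe sets cannot be set against each other. All 7 had a high minus low difference below 0, with a median of -0.17, and none was called, whereas 3 fibroblast markers were lower at the high dose (Pdgfrb, Col3a1 and Col1a2, described below). Whether cells with such markers changed in number or in RNA per cell cannot be told apart in bulk RNA.

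Between 12.5 and 100 µg/ml, 86 probes for 74 named genes were called, 72 lower and 14 higher at the high dose. A probe was called when its adjusted p was at most 0.05, its change at least 1.5-fold and its signal above the negative controls in at least 4 arrays of either group. These were 0.26% of the 33098 detected probes, with 0.218% called lower and 0.0423% called higher, and 0.518% of 14289 detected genes. The 2 genes with the lowest ratio of high to low were Mgp, 4.49-fold lower, and Pdgfrl, 3.1-fold lower, and Angptl6, 2.23-fold higher, showed the largest called increase. By comparison, 5.65% of detected genes were called between the low dose and control and 12.7% between the high dose and control. Both of the latter comparisons use the same control arrays, so their values are given only side by side.

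**Figure D1:**
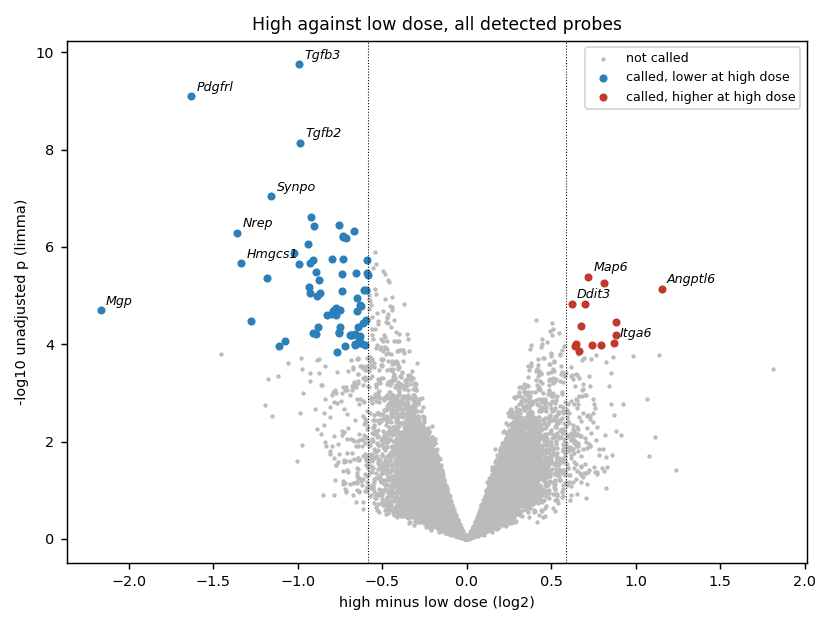
High minus low dose (x axis, log2 difference from the limma fit) against the negative log10 of the unadjusted limma p (y axis) for the 33098 detected probes. Blue points are the 72 probes called lower and red points the 14 called higher at the high dose, and dotted lines mark a 1.5-fold change. Most called probes lie on the left, with Mgp farthest out at -2.17 and Tgfb3 and Pdgfrl at the lowest p.

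The called probes are described here by slide, from the same low and high dose values that chose them, so nothing is read from the counts. All 86 called probes had the same sign of high minus low on every slide on which both were measured, and 76 of them were measured on all 5 slides, where 13.1% of detected probes shared 1 sign. The median difference of the probes called lower ranged from -0.93 on slide 3 to -0.65 on slide 2, and that of the probes called higher from 0.62 on slide 1 to 0.93 on slide 4. The 6 high dose arrays did not overlap the 6 low dose arrays for 41 of the 86, where 0.55% of detected probes did not overlap. The medium dose lay between low and high dose for 85 of the 86, whose low and high values were chosen to lie apart, and for 36.4% of detected probes.

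Without low dose replicate 1 the count rose to 200 probes, 134 lower and 66 higher, and 83 of the 86 were still called. The count was 11 without slide 3, 42 without slide 1 and 41 without slide 5, and it moved by over 1.5 times without low dose replicates 2 (52), 3 (46), 5 (41) and 6 (53) and without high dose replicates 2 (46), 3 (42) and 5 (41). It was 4 when arrays were centred on their median in place of loess. With only the 12 low and high dose arrays in the fit it was 40, of which 34 were among the 86. The genes just inside the threshold were Erp44 (adjusted p = 0.0482) and Tcea1 (adjusted p = 0.0479), and those just outside it Olfml3 (adjusted p = 0.0515) and Ankrd1 (adjusted p = 0.0526).

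**Figure D2:**
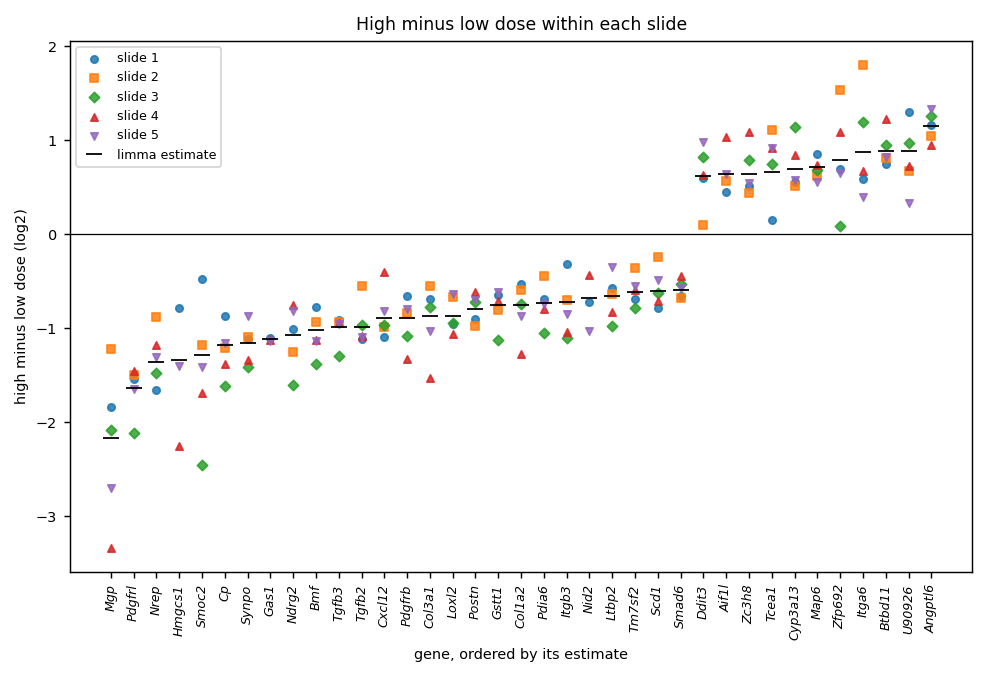
High minus low dose within each of the 5 slides (coloured symbols, log2 difference) for 37 named called genes on the x axis, with the limma estimate as a black bar. On every slide drawn, genes left of Ddit3 lie below 0 and the others above it, while the distance between slides is widest for Mgp, from -3.33 to -1.22.

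Matrix proteins gave the largest change. Mgp encodes matrix Gla protein, a secreted inhibitor of calcification that also binds bone morphogenetic proteins. On the low dose arrays its log2 ratio was lowest at -3.17, with a median of -0.65 and a highest value of 0.07, and on the high dose arrays it was -3.75, -3.08 and -2.20. The groups overlapped through low dose replicate 1 alone, at -3.17, as the next low dose array lay at -1.06. The difference was -2.17 ± 0.39 (SE, limma adjusted p = 0.0163), and -2.60 without that array (adjusted p = 0.000178). Mgp was already lower at the low dose than in controls, by -2.39, and stood at -3.46 at the medium dose and -4.56 at the high dose, a 23.6-fold decrease from control.

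Some other matrix genes were called lower. Smoc2, a secreted calcium-binding matricellular protein, lay between 1.00 and 1.62 at the low dose and between -1.46 and 1.03 at the high dose, a difference of -1.28 ± 0.24 (SE, adjusted p = 0.0223). Its groups overlapped. Of 19 detected collagens, 2 of the fibrillar chains were called lower and none higher. Col3a1 ranged from -0.74 to 1.18 with a median of 0.48 at the low dose and from -1.16 to 0.20 with a median of -0.49 at the high dose, with overlapping groups, and differed by -0.87 ± 0.14 (SE, adjusted p = 0.00764). Col1a2 lay at 0.17 to 0.72 (median 0.46) against -0.71 to 0.13 (median -0.31), without overlap, and differed by -0.75 ± 0.15 (SE, adjusted p = 0.0308). Both chains had also been called lower at the low dose against control, so these 2 decreases went on over the dose range. The median of the 19 collagens was -0.36 between the doses, with 17 below 0, against a median of 0.00140 for all detected genes. Col6a2 had the lowest difference of the list, below both called chains, but missed the threshold (SE 0.41, adjusted p = 0.489). Among the other collagens that were not called, Col6a1 differed by -0.78 and Col1a1 by -0.46.

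The enzymes and fibre partners of collagen included genes that had not moved at the low dose. Loxl2, a lysyl oxidase that cross-links collagen, differed from control by 0.17 at the low dose and by -0.69 at the high dose, and its high minus low difference was -0.87 ± 0.15 (SE, adjusted p = 0.0108). A further Loxl2 probe was called with a difference of -0.74, and the third differed by -0.54, under 1.5-fold. Postn, the matricellular protein periostin, lay within -0.55 to -0.19 at the low dose and -1.59 to -0.88 at the high dose, with no overlap and a difference of -0.80 ± 0.15 (SE, adjusted p = 0.0181). Of the 25 detected elastic fibre and matricellular genes, 3 were called lower (Mgp, Loxl2 and Postn) and none higher, with a median of -0.25, where 0.518% of all detected genes were called. Nid2, a basement membrane linker, was called with -0.68 ± 0.13 (SE, adjusted p = 0.0317), from 5 low and 4 high dose arrays, since outlier spots were left out on the others. Olfml3, a secreted olfactomedin-domain protein, missed the threshold at -1.45 ± 0.31 (SE, adjusted p = 0.0515) and passed it without low dose replicate 1 (-1.80, adjusted p = 0.000719), while its second probe differed by -0.61. Dcn, the collagen-binding proteoglycan decorin, differed by -0.78 ± 0.31 (SE, adjusted p = 0.467), with low dose replicate 6 at -3.97 and the other 5 low dose arrays at -1.59 to -1.10.

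The TGF-beta ligands Tgfb3 and Tgfb2 were called lower. Tgfb3 lay between 0.69 and 1.12 (median 1.02) at the low dose and between -0.18 and 0.10 (median 0.02) at the high dose. No array of one group reached the range of the other. The difference was -0.99 ± 0.08 (SE, adjusted p = 9.89e-06), the lowest p of the comparison, and within slides it ran from -1.29 to -0.91. Tgfb2 lay between -0.45 and 0.00 (median -0.14) at the low dose and between -1.39 and -0.79 (median -1.19) at the high dose, again without overlap, and differed by -0.98 ± 0.10 (SE, adjusted p = 0.000133). Within slides the Tgfb2 difference ran from -1.11 to -0.55, and a further Tgfb2 probe was called with -0.59. Against control, Tgfb3 stood at -0.55, -0.99 and -1.54 and Tgfb2 at -0.85, -1.24 and -1.84 over the rising doses. Ltbp2, a latent TGF-beta binding protein of the matrix, differed by -0.66 ± 0.10 (SE, adjusted p = 0.00679), and Smad6, an inhibitory SMAD, by -0.59 ± 0.09 (SE, adjusted p = 0.00554). These 4 were the only genes called among the 34 detected of the TGF-beta and BMP list, whose median was -0.10, and none was called higher, where 0.518% of all detected genes were called. The ligand Tgfb1 differed by -0.21 and was not called.

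Receptors and integrins gave few calls. In the list of growth factors and receptors 1 of 29 detected genes was called lower, and in that of integrins and focal adhesion 1 of 17 was called lower and 1 higher. Pdgfrl, a secreted relative of the platelet-derived growth factor receptors, lay at -0.84 to 0.14 (median -0.10) at the low dose and at -2.00 to -1.56 (median -1.84) at the high dose. No low dose array reached the high dose range, and the difference was -1.63 ± 0.15 (SE, adjusted p = 2.23e-05). At the low dose it had not been called against control (-0.56). Pdgfrb, the receptor for platelet-derived growth factor B, differed by -0.89 ± 0.15 (SE, adjusted p = 0.0118), with overlap from low dose replicate 1 at -2.65. In contrast, its partner Pdgfra, called at the low dose against control, met the plateau rule defined below. Itga11, a collagen-binding integrin subunit, differed by -0.83 ± 0.15 (SE, adjusted p = 0.0187), and Itgb3, a subunit of the vitronectin receptor, by -0.72 ± 0.15 (SE, adjusted p = 0.0419). Itga6, a laminin-binding integrin subunit, went the opposite way, from a median of -4.19 at the low dose to -3.21 at the high dose, a difference of 0.87 ± 0.18 (SE, adjusted p = 0.0399).

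**Figure D3:**
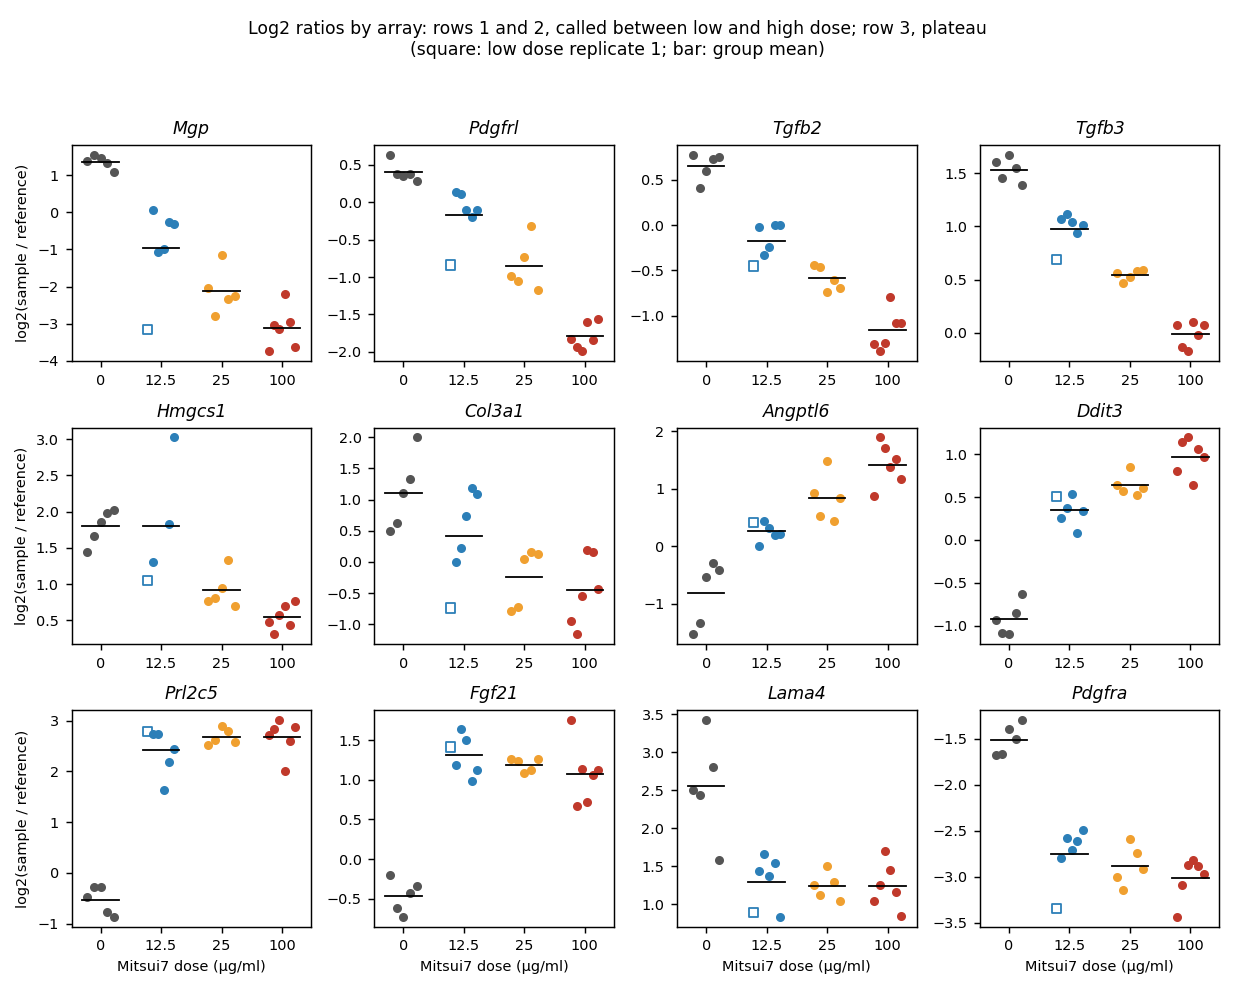
Log2 ratio of sample to reference on each array (y axis) by dose of Mitsui7 in µg/ml (x axis, evenly spaced categories) for 12 genes. Points are arrays, the square is low dose replicate 1 and bars are group means. The upper 8 genes were called between 12.5 and 100 µg/ml, and the lowest row shows 4 genes that met the plateau rule. The 12.5 and 100 µg/ml arrays of these 4 overlap, for Pdgfra through low dose replicate 1 alone.

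Cholesterol synthesis lay to 1 side. All 20 detected genes of the pathway had a high minus low difference below 0, with a median of -0.47 (-0.51 without low dose replicate 1), and 3 were called lower. Of all detected genes, 7102 of 14289 lay below 0. Hmgcs1 encodes cytosolic HMG-CoA synthase, which makes the precursor of mevalonate. It lay between 1.05 and 3.02 (median 1.57) on 4 low dose arrays and between 0.31 and 0.77 (median 0.53) on 6 high dose arrays, as its spots on low dose replicates 3 and 4 were outliers and left out. The difference was -1.34 ± 0.19 (SE, adjusted p = 0.00554), while at the low dose it stood at 0.10 from control. That small value came from slides with opposite signs. On slide 1 the low dose arrays, at 1.05 and 1.30, lay below the controls at 1.45 and 1.67. On slide 4 the low dose array, at 3.02, lay above the control at 2.02. Tm7sf2, a sterol C14 reductase, differed by -0.61 ± 0.10 (SE, adjusted p = 0.0101), with a second probe at -0.47. Members that were not called ranged from -0.67 for Nsdhl to -0.08 for Sc5d, with Sqle, squalene epoxidase, at -0.42 ± 0.27 (SE, adjusted p = 0.748). Against control 7 of the 20 were called lower at the low dose and 18 at the high dose, and none met the plateau rule. In the neighbouring fatty acid list, 1 of 15 genes was called, Scd1, a stearoyl-CoA desaturase, at -0.60 ± 0.12 (SE, adjusted p = 0.0416).

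Promoters of the 5 cholesterol genes with the lowest high minus low difference among those in the RefSeq promoter table (build GRCm38.p6, 250 bases before to 50 after the start of transcription) are shown because all differences of the list had 1 sign. Capitals mark matches, on either strand, to the NF-Y box CCAAT and to the sterol element TCACNCCAC.
Hmgcs1, chr13:119690101-119690400, plus strand: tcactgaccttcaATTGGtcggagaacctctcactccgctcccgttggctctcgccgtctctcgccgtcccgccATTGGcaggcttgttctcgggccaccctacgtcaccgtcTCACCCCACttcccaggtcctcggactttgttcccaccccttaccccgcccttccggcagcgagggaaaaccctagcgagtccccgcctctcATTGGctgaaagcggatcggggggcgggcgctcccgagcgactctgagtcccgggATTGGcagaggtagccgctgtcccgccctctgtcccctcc
Nsdhl, chrX:72918271-72918570, plus strand: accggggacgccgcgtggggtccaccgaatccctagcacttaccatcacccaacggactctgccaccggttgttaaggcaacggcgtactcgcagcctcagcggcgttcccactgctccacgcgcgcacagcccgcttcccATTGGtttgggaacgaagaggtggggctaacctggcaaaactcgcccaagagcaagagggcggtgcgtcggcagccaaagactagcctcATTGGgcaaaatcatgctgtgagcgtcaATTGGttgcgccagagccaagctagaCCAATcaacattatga
Tm7sf2, chr19:6067801-6068100, minus strand: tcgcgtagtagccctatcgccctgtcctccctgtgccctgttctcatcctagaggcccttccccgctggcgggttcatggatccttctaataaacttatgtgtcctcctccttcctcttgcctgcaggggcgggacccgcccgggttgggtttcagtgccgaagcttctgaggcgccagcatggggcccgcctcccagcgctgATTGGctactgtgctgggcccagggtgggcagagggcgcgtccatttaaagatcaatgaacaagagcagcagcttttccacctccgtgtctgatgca
Mvd, chr8:122443373-122443672, minus strand: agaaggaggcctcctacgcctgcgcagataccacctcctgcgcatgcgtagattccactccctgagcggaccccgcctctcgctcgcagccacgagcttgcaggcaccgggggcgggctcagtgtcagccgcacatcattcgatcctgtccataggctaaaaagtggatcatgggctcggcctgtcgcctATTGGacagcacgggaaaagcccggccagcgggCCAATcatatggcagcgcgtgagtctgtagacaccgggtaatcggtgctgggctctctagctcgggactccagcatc
Idi1, chr13:8885356-8885655, plus strand: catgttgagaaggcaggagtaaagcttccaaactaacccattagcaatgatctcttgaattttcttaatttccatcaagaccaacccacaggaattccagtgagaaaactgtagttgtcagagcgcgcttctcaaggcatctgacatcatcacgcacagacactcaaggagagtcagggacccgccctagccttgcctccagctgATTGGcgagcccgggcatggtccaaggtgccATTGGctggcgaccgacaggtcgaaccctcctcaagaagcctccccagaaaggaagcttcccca
The CCAAT letters stood in each of these windows, 4 times in Hmgcs1 and Nsdhl, 2 times in Mvd and Idi1 and 1 time in Tm7sf2. Over the list, 13 of the 15 promoters found in the table held CCAAT (86.7%), against 37.9% of 27025 promoters of the same length. The sterol element was found in 1 of the 15, Hmgcs1, against 1.2% of all promoters. Among genes called lower, 39 of 61 had a promoter in the table, and 19 of these held CCAAT (48.7%). These matches describe the letters and say nothing of binding.

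Secreted proteins and enzymes added to the decreases. Cp, the copper ferroxidase ceruloplasmin, lay at -2.46 to -0.88 (median -1.19) at the low dose and at -2.75 to -2.41 (median -2.49) at the high dose. Low dose replicate 1 accounted for the overlap, and the difference was -1.18 ± 0.19 (SE, adjusted p = 0.0075) with it and -1.40 (adjusted p = 1.96e-05) without it. Cp had stood at 0.17 from control at the low dose. Cxcl12, a chemokine for stem cells and lymphocytes, was called by 1 probe at -0.89 ± 0.14 (SE, adjusted p = 0.00679), whereas its brightest probe differed by -0.08 and met the plateau rule, so the probes of this gene disagreed. Gstt1, a glutathione transferase, differed by -0.76 ± 0.10 (SE, adjusted p = 0.0029) and was the only one called of 22 detected family members.

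Further genes with large decreases came from several classes. Nrep, a small protein expressed in regenerating neurons and in mesenchymal cells, fell from a range of 0.25 to 1.10 at the low dose to -1.21 to -0.54 at the high dose (difference -1.36 ± 0.19, SE, adjusted p = 0.00308), and was well above background on 3 of 6 high dose arrays. Synpo, the actin-associated protein synaptopodin, lay at 0.32 to 1.36 against -0.40 to 0.04 and differed by -1.16 ± 0.14 (SE, adjusted p = 0.00125), although a second probe differed by -0.25 and was not called. Neither gene's groups overlapped. Gas1, a membrane-anchored growth arrest protein, differed by -1.11 ± 0.21 (SE, adjusted p = 0.0419) over 4 arrays of each group, and its second probe by -0.32. Ndrg2 differed by -1.08 ± 0.22 (SE, adjusted p = 0.0377), with low dose values of 0.07 to 1.13 and high dose values of -0.81 to 0.29. Bmf, a pro-apoptotic BH3-only protein, lay between -0.82 and 0.29 and between -1.61 and -0.83, a difference of -1.02 ± 0.15 (SE, adjusted p = 0.00506). Pdia6, a protein disulfide isomerase of the endoplasmic reticulum, was called at -0.73 ± 0.10 (SE, adjusted p = 0.00308), with a second probe at -0.48. It was the only one called of the 18 detected genes in the list of chaperones of that compartment. That list does not hold Erp44, another protein of the endoplasmic reticulum, which was called lower at -0.76. Of the 10 called probes without a gene symbol, 4 targeted 1 interval of chromosome 15, 32167516 to 32174427 on build mm9 at its widest, with differences of -0.77 to -0.66, while other probes of that interval were not called.

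Increases were fewer. Angptl6, a secreted angiopoietin-like protein, lay at 0.01 to 0.45 (median 0.27) at the low dose and at 0.87 to 1.89 (median 1.45) at the high dose, without overlap. It differed by 1.15 ± 0.19 (SE, adjusted p = 0.0101), after a rise of 1.08 over control at the low dose. Ddit3 encodes CHOP, a transcription factor of the stress response, and lay at 0.08 to 0.54 (median 0.35) against 0.63 to 1.19 (median 1.01), again without overlap. Its difference was 0.62 ± 0.11 (SE, adjusted p = 0.0146), on top of 1.28 between control and low dose. Map6, a microtubule-stabilising protein, rose by 0.72 ± 0.11 (SE, adjusted p = 0.00713) with no overlap of the arrays, and its second probe differed by 0.21 and was not called. U90926, a transcript with a non-coding accession, differed by 0.88 ± 0.17 (SE, adjusted p = 0.0223), and Btbd11 by 0.88 ± 0.17 (SE, adjusted p = 0.0317), with low dose replicate 1 at 0.91 and the other low dose arrays at -0.66 to -0.10. Smaller called increases were those of Zfp692 (0.79), Zc3h8 (0.65) and Aif1l (0.64). Tcea1, a transcription elongation factor, differed by 0.66, with the arrays of slide 5 highest in both groups, at 0.55 for the low and 1.46 for the high dose. Cyp3a13, a xenobiotic-metabolising cytochrome, differed by 0.70 ± 0.12 (SE, adjusted p = 0.0146) near background, as the scanner marked it well above background on 1 of 6 low and 5 of 6 high dose arrays, and a further probe differed by 0.19 and was not called.

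The promoter of Ddit3 is shown for the AP-1 box TGANTCA, one of the elements that transcription factors of the stress response recognise, with capitals also at CCAAT.
Ddit3, chr10:127290543-127290842, plus strand: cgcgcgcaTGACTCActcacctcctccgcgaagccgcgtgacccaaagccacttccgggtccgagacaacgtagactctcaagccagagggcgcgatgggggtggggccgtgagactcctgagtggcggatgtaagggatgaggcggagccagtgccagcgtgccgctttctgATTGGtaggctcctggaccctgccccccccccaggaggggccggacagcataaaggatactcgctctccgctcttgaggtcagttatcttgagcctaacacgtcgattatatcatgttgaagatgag
AP-1 letters were found in 2 of 8 promoters of genes called higher (25.0%), in 2 of 39 of genes called lower (5.1%) and in 7.9% of all promoters, which are small counts and carry no test.

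The stress lists around Ddit3 moved little between the doses. Of 30 detected ATF4 and CHOP targets 1 was called higher, with a median difference of 0.12, while their median stood at 0.56 over control at the low dose and 0.68 at the high dose. Values that missed the threshold included Ppp1r15a, the phosphatase subunit that ends the response, at 0.61, Chac1 at 0.59 and Trib3 at 0.53. None of 18 detected AP-1 and immediate early genes was called, with 14 above 0 and a median of 0.24, and Atf3 at 0.70 and Jund at 0.87. In the NRF2 list, the antioxidant response, none of 21 was called and the median was 0.09. Hmox1, heme oxygenase, differed by 0.48 ± 0.18 (SE, adjusted p = 0.416), with a second probe near 0, and Txnrd1, thioredoxin reductase, by 0.35 ± 0.10 (SE, adjusted p = 0.224). Ccn2, the connective tissue growth factor, lay at 2.74 to 3.76 at the low dose and at 3.41 to 4.31 at the high dose, a difference of 0.62 ± 0.15 (SE, adjusted p = 0.0871, and 0.00558 without low dose replicate 1). Of 24 detected p53 targets none was called and the median was 0.08. DNA replication genes had a median of 0.02 and mitosis genes of -0.20, again with no call.

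**Figure D4:**
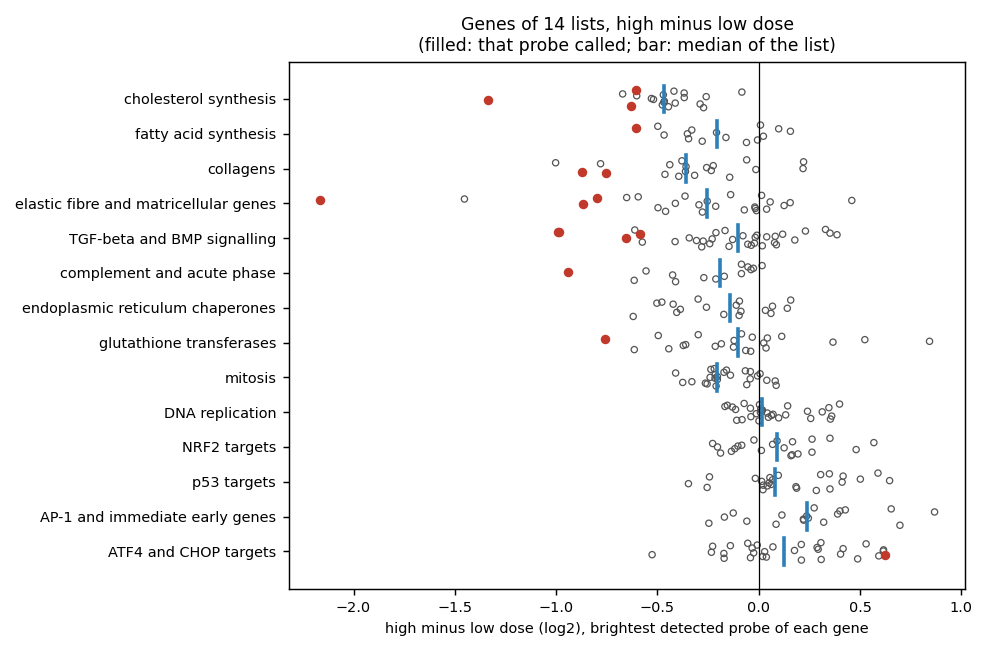
High minus low dose (x axis, log2 difference) for the brightest detected probe of each gene in 14 gene lists (y axis). Filled red points are called probes, open points are not called, and blue bars are list medians. Cholesterol genes all lie below 0, as do most collagens, while the ATF4 and CHOP targets and the AP-1 list lie around or above 0.

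Some of the called genes changed between the doses after a change of under 1.5-fold at the low dose. For 13 of the 86 probes the 95% interval of low dose minus control lay within 1.5-fold in either direction, 11 of them lower and 2 higher at the high dose. They included Loxl2, Postn, Itgb3 and Itga6, given above, and Hmgcs1, whose low dose change had opposite signs on slides 1 and 4. Cyp3a13 was another, but it was well above background on 0 of 5 control and 1 of 6 low dose arrays, so its interval says nothing of a change at the low dose. Slc7a2, a transporter of cationic amino acids, stood at 0.10 from control at the low dose and -0.83 at the high dose, with a difference of -0.94 ± 0.15 (SE, adjusted p = 0.00964). Kif26b, an atypical kinesin, lay at 1.45 to 1.98 at the low dose and 0.64 to 1.31 at the high dose, a difference of -0.80 ± 0.12 (SE, adjusted p = 0.00554). By the call against control, 35 of the 86 were called at the high dose and not at the low dose, and 47 were called at the low dose. The remaining 4, Zfp692, Tcea1, Ankrd34a and Wwtr1, were called at neither dose against control. Wwtr1, which encodes the co-activator TAZ, stood at 0.56 above control at the low dose and at -0.09 at the high dose (difference -0.64 ± 0.12, SE, adjusted p = 0.0262).

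A gene was taken as at plateau when it was called at the low dose against control and the whole 95% interval of high minus low lay within 1.5-fold in either direction. Of 1017 probes called at the low dose, 572 (56.2%) met this rule, 250 above and 322 below control. At the level of genes it was 454 of 773 (58.7%). Another 47 probes were called between the doses, and for 398 the data allowed neither statement. The interval had a median half-width of 0.29 for these probes, so a change of that size between the doses was not excluded for most of them. The low dose arrays enter both steps of the rule, so the 2 steps are not independent. Without low dose replicate 1 the rule gave 483 probes, of which 405 were among the 572. Just inside the limit lay Gdpd1, with an interval up to 0.58, and just outside it Vwa5a, with an interval down to -0.59.

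Among genes raised to a plateau were growth factors and inflammatory mediators. The largest rise at the low dose was that of the proliferin-family hormones Prl2c5 (2.99 over control) and Prl2c1 (2.94), whose members share long stretches of sequence and may not be told apart by the probes. Prl2c5 lay at 1.64 to 2.79 (median 2.60) at the low dose and 2.01 to 3.01 (median 2.78) at the high dose. The groups overlapped over most of their range, and the difference was 0.25 with a 95% interval of -0.03 to 0.54. A second Prl2c5 probe differed by 0.29 ± 0.27 (SE) and did not meet the rule. Fgf21, a stress-induced metabolic hormone, stood at 1.80, 1.65 and 1.57 over control as the dose rose, and its difference was -0.23 (95% interval -0.55 to 0.09). Only 2 of 5 control arrays measured Fgf21 well above background. Ccl5, a chemokine for T cells and monocytes, stood at 1.63, 1.53 and 1.81, and Ptgs2, the inducible cyclooxygenase, at 1.43, 1.57 and 1.48. Ifit1, an interferon-induced RNA-binding protein, stood 1.86 over control at the low dose, where only 1 of 5 control arrays had it well above background, and its difference between doses was 0.14 (95% interval -0.20 to 0.48). Nupr1, a stress-induced chromatin protein of the ATF4 list, stood 1.47 above control at the low dose and 1.23 at the high dose, with the whole interval below 0 (-0.42 to -0.05). Tcim was raised by 1.96 and differed by -0.16 between the doses.

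Genes lowered to a plateau included membrane and adhesion proteins. Cx3cl1, the membrane-bound chemokine fractalkine, stood at -1.45, -1.45 and -1.46 from control at the 3 doses. Its 5 low dose arrays lay at -4.17 to -3.34 and its high dose arrays at -3.96 to -3.55, a difference of -0.01 (95% interval -0.29 to 0.27). Lama4, a laminin chain of basement membranes, lay at 0.84 to 1.67 (median 1.41) and 0.85 to 1.71 (median 1.21), with a difference of -0.05 (95% interval -0.32 to 0.22). Pdgfra, a receptor for platelet-derived growth factor, stood at -1.27 at the low dose and -1.53 at the high dose, and its interval of -0.45 to -0.06 lay wholly below 0. The Pdgfra groups overlapped through low dose replicate 1 alone, at -3.35. The other low dose arrays lay at -2.80 to -2.49 and the high dose arrays at -3.43 to -2.82. Without that array the difference was -0.34 (limma adjusted p = 0.0843). Plekha7, an adherens junction protein, Tle2, a co-repressor, Phactr1 and Rab40b differed by -0.18 to -0.07 between the doses after decreases of -1.43 to -1.27 at the low dose. For Abca9, a transporter of the ABC family that also met the rule, the scanner marked no high dose array well above background, so its high dose level is only a bound and no difference is given. One of the other Phactr1 probes was not at plateau, with a difference of -0.48.

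**Figure D5:**
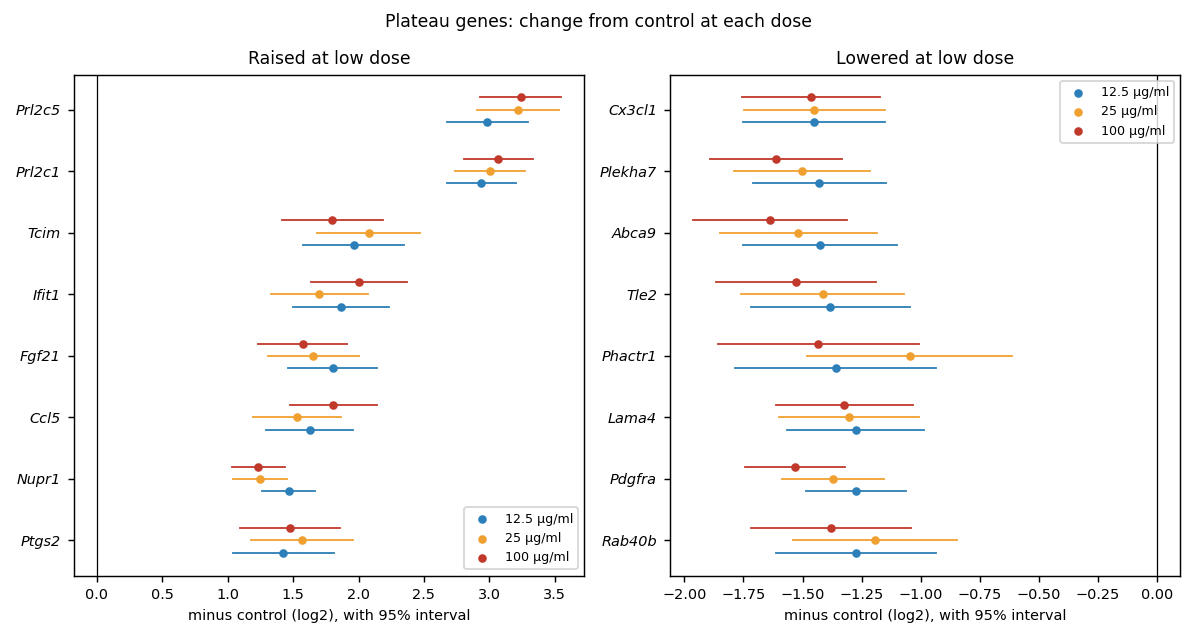
Difference from control (x axis, log2, with 95% intervals from the limma fit) at 12.5, 25 and 100 µg/ml for the 16 genes of the plateau class with the largest low dose change (y axis), 8 raised on the left and 8 lowered on the right. The low and high dose lie close together for each gene because the rule selected such genes, while the medium dose did not enter the rule. Over the rising doses Cx3cl1 stood at -1.45, -1.45 and -1.46 and Phactr1 at -1.36, -1.05 and -1.43. The high dose value of Abca9 is only a bound.

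The plateau class is given by list beside the share of 58.7% over all genes called at the low dose, and differences from that share were not tested. Of the 6 EGF receptor ligand and ERK feedback genes called higher at the low dose, 4 were at plateau, among them Dusp1 and Dusp6, phosphatases that switch off MAP kinases. Of the 12 ATF4 and CHOP targets called higher at the low dose, 6 were at plateau, including Slc7a11, the cystine transporter, and 1, Ddit3, was called between the doses. For the 7 cholesterol genes called lower at the low dose the count at plateau was 0. Of 8 collagens called lower at the low dose 1, Col18a1, was at plateau by 1 of its probes, and 2 were called between the doses. In the glutathione transferase list 10 genes were called at the low dose, 4 at plateau, all lower, and 1 called between the doses. The interferon list held 3 plateau genes above control and 1 below it.

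Several genes with large changes at the low dose were neither called between the doses nor at plateau. Mmp13, a collagenase, stood at 3.23 over control at the low dose and 3.52 at the high dose, with an interval of -0.06 to 0.65 for the difference, though only 3 of 5 control arrays measured it well above background. Il1rl1, the receptor for interleukin 33, stood at 2.47 and 2.64 by its brightest probe (interval of the difference -0.25 to 0.59). Another Il1rl1 probe stood at 1.32 and 1.66, while a further one, at 0.16 and 0.14, was not called at either dose. Il33 itself differed by -1.17 ± 0.28 (SE, adjusted p = 0.093). Without low dose replicate 1, Il33 was called (-1.36, adjusted p = 0.0283). Gsto2, a glutathione transferase of the omega class, differed by 0.84 ± 0.21 (SE, adjusted p = 0.108), and Car6, a secreted carbonic anhydrase, by 1.81 ± 0.42 (SE, adjusted p = 0.0735). Both passed the threshold without low dose replicate 1 (Gsto2 adjusted p = 0.0115, Car6 adjusted p = 0.0286). Car6 was not called at the low dose against control (1.44, limma adjusted p = 0.0903), so it could not enter the plateau class. Only 2 of 5 control arrays measured Car6 well above background. Cyp1b1, a target of the aryl hydrocarbon receptor, differed by -0.97 ± 0.24 (SE, adjusted p = 0.13) and the receptor gene Ahr by -0.71 ± 0.18 (SE, adjusted p = 0.108), the latter with all 5 slides below 0 and a second probe at -0.21. Lama1, a laminin chain well above background on 2 of 6 high dose arrays, differed by -0.58 ± 0.25 (SE, adjusted p = 0.514), and Gsta4 by -0.44 ± 0.13 (SE, adjusted p = 0.212). Of the genes often taken as constant, Hprt differed by 0.15 ± 0.15 (SE, adjusted p = 0.851), Gapdh by -0.21 ± 0.14 (SE, adjusted p = 0.767) and Actb by -0.57 ± 0.31 (SE, adjusted p = 0.666), the last with low dose replicate 4 at 3.22 against a group median of 0.43.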

How the data were processed

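Total RNA of FE1 cells was labelled with Cy5 and hybridised with a Cy3-labelled common reference to 2-colour Agilent mouse arrays, 1 per sample, with no dye swap. Per the file headers, Agilent Feature Extraction turned scans into spot intensities, among them the median intensity per channel used here, and into dye-normalised log10 ratios of Cy5 over Cy3, used as an alternative. The deposited value table holds the authors' processed log2 ratios, whose columns each correlated best with their own array (correlations 0.840 to 0.990, median values 0.00433 to 0.0267), so the direction is sample over reference. Correlations do not show the scale. The slope of a column on its own array ran from 0.573 (high dose replicate 5) to 0.981 (low dose replicate 1). The centring applied is not given in the sources used here. This value table too served as an alternative. In the authors' methods the differential expression was tested with MAANOVA.

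From the spot intensities, log2(Cy5/Cy3) was computed without background subtraction, spots marked as outliers were set to missing (0.401 to 6.22% of spots per array), control spots were left out, and each array was loess normalised. Spots of 1 probe were summarised by their median. Detection on an array required a Cy5 signal over a limit set by its 308 negative control spots, namely their mean after 5% trimming with 3 SDs of the trimmed values added. A linear model with group and slide was fitted to all 22 arrays with limma 3.58.1 in R 4.3.3. The adjusted p of a probe is from this fit, Benjamini-Hochberg adjusted over 55681 probes. Values given without low dose replicate 1 are from the same model fitted without that array. Differences are on the log2 scale, and values written as fold are linear. The precision is limited by the number of arrays. The fit was tested on simulated data.

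Low and high dose arrays of the same number shared a slide. Correlations of their deviations were 0.274 to 0.786 in the 6 pairs, and 5 of the 6 low dose arrays correlated best with their own number. Low dose replicate 6 correlated more with high dose replicate 5 (0.577). Arrays of unlike number on slide 1 also correlated (0.443 and 0.356), so pairing by number and a shared slide cannot be told apart. Slides were scanned separately and are the only batch in the files. Gene names were assigned by matching the transcript identifier of each probe to RefSeq transcripts, which named 26413 of the 55681 probes. Where a gene had several probes, a list count took any called probe, and medians took the brightest detected probe. Named genes were the 12 largest decreases and up to 12 increases called, called genes near background, the 8 largest plateau genes in each direction by their low dose change, called members of the lists, and 21 genes given whatever their values. Further genes (Slc7a2, Kif26b, Itga11, Wwtr1 and the uncalled list members) were chosen after their values were seen. Some genes are not reported here. Members and lists were chosen with earlier results of these data known. Promoter sequences came from RefSeq (build GRCm38.p6). Columns of per-sample values left unused numbered 0.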

Additional observations from a re-analysis of the deposited data

Results flagged for a closer look

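In 11 of 154 groups of 4 to 6 arrays, 1 array lay far from the others, with a gap to its nearest neighbour that took an unusually large share of the group's range, and chance alone marks about 1 group in 20. Low dose replicate 1 was the outlying array for Mgp (gap 0.6504 of the range, log2 ratio -3.17), Pdgfrl (0.6532, at -0.84), Pdgfra (0.6407, at -3.35), Cp (0.7481, at -2.46), Btbd11 (0.6452, at 0.91) and, among 5 arrays, Gapdh (0.7283, at -0.49). Low dose replicate 6 was outlying for Dcn (0.83, at -3.97) and Smoc2 (0.6433, at 1.62). Low dose replicate 4 was outlying for Actb (0.9034, at 3.22) and for the negative control threshold (0.7384, at 95.03 intensity units). High dose replicate 5 was outlying for Tcea1 (0.7695, at 1.46).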

How the results depend on the processing

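No change of the 41 named called genes reversed under any of 35 alternatives, and 924 of the 1435 values kept the call. The kept calls were uneven over genes. Pdgfrl and Synpo kept the call in all 35 alternatives. By contrast, Col1a2 and Ndrg2 kept it in 14, Itgb3, Nid2, Scd1 and Zfp692 in 13 and Gas1 in 12. Btbd11, Tcea1 and Zc3h8 kept it in 11 and Itga6 and Aif1l in 10. The count of 86 called probes was 40 with only the 12 low and high dose arrays in the fit, of which 34 were among the 86. It was 27 without the slide term, 35 from the authors' log2 table and 154 with array weights. It was 4, all lower, with median centring in place of loess, which moved the median of all probes by 0.03. Without a fold threshold it was 163, and with a 2-fold threshold 11. Without slide 1 it was 42, without slide 3 it was 11 and without slide 5 it was 41. A replicate block in place of the slide term, fitted to the 12 low and high dose arrays only, gave 92. Of these, 59 were among the 86, while the slide term on the same 12 arrays gave the 40. Leaving out 1 array gave 41 to 200 called probes, with the highest count without low dose replicate 1. The 572 plateau probes became 334 without the slide term, 211 with median centring, 1414 without a fold threshold, 222 with a 2-fold threshold, 364 without slide 2 and 366 without slide 3, 629 with the replicate block, and 447 to 678 when 1 array was left out. The causes were not tested, other than that fewer arrays or another threshold enter by construction. Of the remaining alternatives (random slide block, Aquantile, normexp, the scanner's log10 ratio, outlier spots kept, variance trend, adjustment over detected probes, other detection filters, slides 2 and 4 left out), the count of called probes stayed within 1.5 times. A like count does not mean the same probes, as the scanner's log10 ratio kept 43 of the 86 calls and 278 of the 572 plateau probes.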
